A study of Oryza sativa with 16 samples.

Results

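The response of rice seedlings to 1-aminocyclopropane-1-carboxylic acid (ACC), the compound from which plants make ethylene, was read from 6 of the 16 arrays of the series: 2 arrays of ACC-treated seedlings and 4 arrays of seedlings kept in water. The water arrays are those titled control2 (2 arrays) and control1 (2 arrays). All seedlings were of Oryza sativa subspecies indica, variety IR64, 7 days old, grown in hydroponic culture with 14 h of light and 10 h of darkness a day. The ACC seedlings stood in a 100 µM solution for 3 h and both control sets stood in water for 3 h. Nothing in the labels says which control set was grown or processed with the ACC seedlings. Whole seedlings were used, so fewer cells of a type and less RNA per cell cannot be told apart. Root and shoot tissue were both represented: 16 of 18 root marker genes and 8 of 9 shoot marker genes were measured above the filter. No member of either list was called against the 4 controls or control2 by limma. Against the 4 controls 2 root and 1 shoot gene had an unadjusted p under 0.05, beside 3537 of all 24100 probe sets tested. The other 10 arrays, which hold seedlings treated with IAA or BAP at 50 µM and with ABA, SA or JA at 100 µM, entered the fit as a source of the spread and as a second comparison for ACC.

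ACC oxidase turns ACC into ethylene gas, so supplying ACC is a common way to feed ethylene to a plant. Ethylene receptors are negative regulators: in air they keep the pathway off, and binding of the gas releases EIN2, which then lets transcription factors of the EIN3 and EIL family act in the nucleus. In rice, ethylene is known for elongation of submerged shoots, for inhibition of root growth in the dark and for the formation of gas spaces in roots. Production of the receptors of the ETR2 type in response to the hormone is textbook knowledge from Arabidopsis.

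Values are on the log2 scale, as GCRMA values of the Affymetrix rice array, so 1 unit is a doubling. Of 57194 rice probe sets, 24100 had a value above 5 in at least 2 of the 16 arrays and were tested. A probe set is called here when its adjusted p-value from limma, with Benjamini-Hochberg adjustment over all 24100, is under 0.05. "Against the 4 controls" means control1 and control2 as 1 group, and errors of changes are standard errors of the fit (2 ACC arrays with 4 or with 2 control arrays).

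The choice of the control set bears on every result below. Over all tested probe sets, ACC differed from control2 by a root mean square of 0.34 units and from control1 by 0.667, and control2 itself differed from control1 by 0.644. These are differences between means of 2 arrays, and the single replicate arrays differed from each other by 0.401 in ACC, 0.372 in control2 and 0.305 in control1. The first ACC array correlated with the second ACC array with r = 0.987 across probe sets, with the first control2 array at 0.987 and with the control1 arrays at 0.963 and 0.955. The poly-A spike-ins, transcripts added to the RNA before labelling, read lower at the 5' end than at the 3' end (36 probe sets), with 5' minus 3' means of -0.74 in ACC, -0.66 in control2 and -1.32 in control1. Hybridization spike-ins averaged 11.8 in ACC, 11.8 in control2 and 10.3 in control1. The 3' minus 5' difference of actin, a sign of RNA quality, was 2.98 in ACC, 3.15 in control2 and 2.51 in control1. Single arrays of ACC ran from 2.74 to 3.22 in this measure, both above the 2.42 and 2.60 of control1. The same difference for GAPDH was 0.82 in ACC, 0.73 in control2 and 0.73 in control1. For cyclophilin it was 1.71 in ACC, 1.70 in control2 and 1.42 in control1. Single cyclophilin values were 1.48 and 1.94 in ACC and 1.36 and 1.47 in control1. With the spike-in group as a block, the change against the 4 controls becomes the change against control2. The part of RNA quality in the results was not tested. The change against control2, the set of the same spike-in group, is therefore given beside each change of a called named gene against the 4 controls. For other genes it is given beside some of the changes.

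Against the 4 controls 148 of 24100 probe sets were called, 0.614%, of which 71 rose (0.295%) and 77 fell (0.32%). Of the 148, 93 changed at least 2-fold, 50 up and 43 down. Against control2 alone 82 were called, 0.34%, with 47 higher (0.195%) and 35 lower (0.145%). Without the adjustment 3537 and 2439 of the 24100 probe sets had a limma p-value under 0.05 in the comparisons with the 4 controls and with control2. These counts are the background for the unadjusted counts of the lists below. The count depended on how the controls entered the fit: it was 1854 with the mean of both control sets as separate groups and 3628 with array weights. The median change over all tested probe sets was -0.005 against the 4 controls and -0.00013 against control2.

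Both comparisons use the same ACC arrays and share the control2 arrays, so they are not independent of each other. For all 148 calls against the 4 controls, both ACC arrays lay outside the range of the 4 control arrays. The calls were made on these same values, so this is no separate support for them. Over all tested probe sets, both ACC arrays lay above the 4 controls in 9.81% and below them in 9.92%. Among the 82 calls against control2, 71 had both ACC arrays outside the range of the 4 controls and 11 did not. Set against control1 alone, ACC gave 5767 calls, 23.9%, while control2 against control1, with water in both, gave 5087, 21.1% (2216 higher, 9.2%, and 2871 lower, 11.9%).

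**Figure D1:**
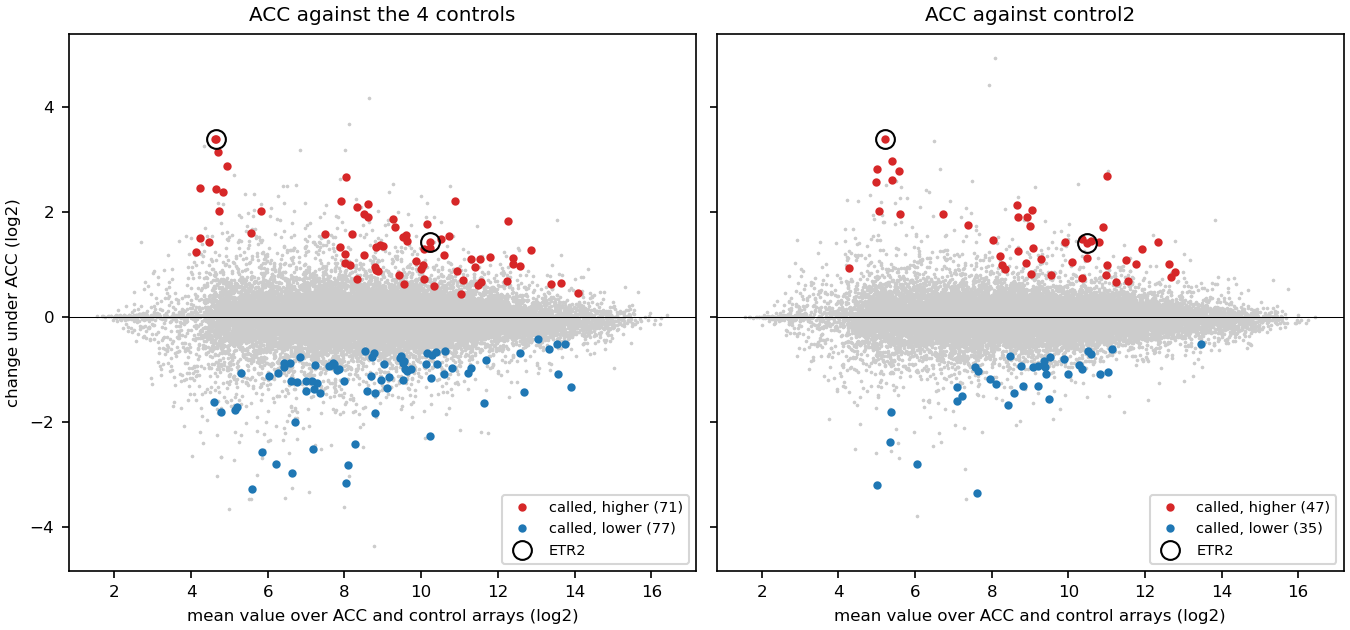
Change under ACC (vertical axes, log2) against the mean value of the probe set over the ACC and control arrays used (horizontal axes, log2), for the 4 controls (left) and control2 alone (right), 1 point per tested probe set. Called probe sets are in colour (148 on the left, 82 on the right, red for rises and blue for falls), and the 2 probe sets of ETR2 are ringed.

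Most called genes have no name in the tables used. Of the 177 probe sets called in either comparison, 133 stand for 1 gene each (125 genes), 20 of them for 19 genes with a name and 113 for genes with a locus identifier alone, and 44 have no gene given in the platform annotation. The named genes are described below in the order of the ethylene pathway and then by role.

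The ethylene receptor gene ETR2 rose under ACC on both of its probe sets. On its first probe set the gene read 11.19 and 11.20 in the ACC arrays, against 9.87 and 9.69 in control2 and 9.68 and 9.82 in control1. The ACC arrays stood above every control array, and the 2 control sets covered the same narrow range. The rise was 1.43 ± 0.11 against the 4 controls (2.70-fold, adjusted p = 0.00019) and 1.42 ± 0.12 against control2 (adjusted p = 0.000838). On the second probe set it read 6.80 and 7.02 in ACC, against 3.35 and 3.67 in control2 and 3.53 and 3.51 in control1. All control arrays were below the value of 5 used in the filter, where GCRMA's background correction shapes the values, so the size of this change depends on the lowest part of the scale. It rose by 3.39 ± 0.20 against the 4 controls (10.5-fold, adjusted p = 1.78e-05) and by 3.40 ± 0.23 against control2 (adjusted p = 8.69e-05). Neither probe set was called between the control sets, with 0.03 ± 0.12 and -0.01 ± 0.23 for control2 minus control1 (adjusted p = 0.896 and 0.984).

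The 10 arrays of the other hormones ran from 9.25 to 10.41 on the first ETR2 probe set and from 3.28 to 4.81 on the second, with the BAP arrays highest (10.41 and 10.21, and 4.81 and 4.05). No array of another hormone reached the ACC arrays on either probe set. Against the mean of the other 5 hormones ETR2 was higher by 1.48 ± 0.10 and 3.16 ± 0.18 (adjusted p = 7.66e-06 and 4.37e-06).

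The other receptor genes did not pass the test. ETR3 read 10.65 and 11.26 in ACC, against 10.11 and 10.47 in control2 and 10.26 and 10.23 in control1, so both ACC arrays were above all controls but apart from each other. Its difference was 0.69 ± 0.18 (adjusted p = 0.113) against the 4 controls and 0.67 ± 0.21 (adjusted p = 0.26) against control2. ERS1, a receptor of the subfamily that retains histidine kinase motifs, read 12.58 and 12.47 in ACC, against 12.39 and 12.33 in control2 and 12.40 and 12.54 in control1, with overlapping groups and a difference of 0.11 ± 0.11 (adjusted p = 0.669). For ERS2, the values were 5.43 and 5.64 in ACC, against 5.62 and 6.57 in control2 and 6.60 and 6.86 in control1. The first control2 array lay between the ACC arrays, and the difference of -0.88 ± 0.35 had an adjusted p of 0.284. Against control2 the difference of ERS2 was -0.56 ± 0.37 (adjusted p = 0.68). ETR4 stayed between 1.87 and 1.94 in all 16 arrays and was not tested. Over the 4 tested receptor genes, 1 rose, 0 fell and 3 did not pass, with a median of 0.40 against the 4 controls and 0.42 against control2.

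**Figure D2:**
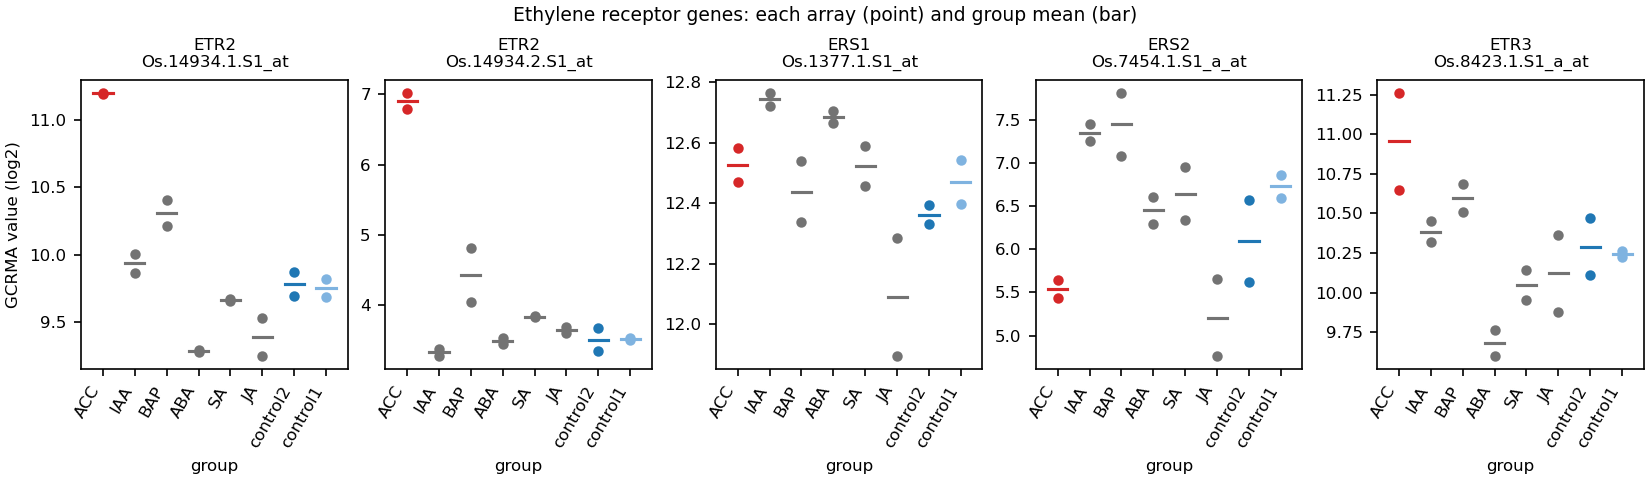
GCRMA values (log2, vertical axes with separate scales that do not start at 0) of the ethylene receptor probe sets in each array (points) with the mean of each group's 2 arrays (bars). ETR2 was higher in the ACC arrays than in all other arrays on both probe sets (11.19 and 11.20, and 6.80 and 7.02), while ERS1 overlapped the controls.

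ARGOS, held in the list of signalling downstream of the receptors, was called against control2 and not against the 4 controls. ARGOS proteins are known from Arabidopsis and maize to lower ethylene sensitivity by acting on receptor signalling. The gene read 9.64 and 9.62 in ACC, against 7.79 and 7.65 in control2 and 8.88 and 9.23 in control1. Both ACC arrays stood above all 4 controls, and the control sets stood far apart from each other. The rise against control2 was 1.91 ± 0.19 (3.77-fold, adjusted p = 0.00127), and the difference from the 4 controls was 1.25 ± 0.37 (adjusted p = 0.166). Against control1 alone it was 0.58 (adjusted p = 0.0448).

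EIN2, the membrane protein through which the signal leaves the receptors, read 8.29 and 8.91 in ACC, against 9.10 and 9.07 in control2 and 9.31 and 9.22 in control1. Both ACC arrays were below all controls, yet the difference of -0.58 ± 0.16 had an adjusted p of 0.147. Against control2 the difference of EIN2 was -0.49 ± 0.18 (adjusted p = 0.372). EIL1A, a transcription factor of the EIN3 type, differed by 0.14 ± 0.10 (adjusted p = 0.547). EIL1B, between 2.79 and 3.49 in all arrays, was not tested. Of the 3 tested genes of this list, 0 were called against the 4 controls and 1 rose against control2.

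The list of genes that make ethylene held 3 genes matched by name, of which 2 were tested. Neither was called by limma in either comparison (1 and 0 of the 2 had an unadjusted p under 0.05). Genes of this kind known by a locus identifier alone were not looked at. ACS2, an ACC synthase, read 7.89 and 8.36 in ACC, against 8.002 and 7.05 in control2 and 6.27 and 6.36 in control1. The ACC arrays overlapped control2 and lay above control1, and the difference was 1.205 ± 0.44 (adjusted p = 0.237) against the 4 controls and 0.60 ± 0.37 (adjusted p = 0.649) against control2. ACO1, an ACC oxidase, read 5.50 and 4.91 in ACC, against 5.70 and 5.04 in control2 and 6.82 and 6.70 in control1. Its ACC arrays overlapped control2 and lay below control1. The difference was -0.86 ± 0.47 (adjusted p = 0.418) against the 4 controls and -0.17 ± 0.37 (adjusted p = 0.942) against control2. ACS1 stayed between 1.65 and 1.87 in all arrays.

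The methionine cycle recycles the sulphur group released when ACC is made. Its list also holds genes that make S-adenosylmethionine (SAM1 and SAM2) or use it (NAS1, NAS2 and NAS3). The list had 8 tested genes and 0 calls by limma in either comparison (1 and 1 with an unadjusted p under 0.05). Its median was -0.08 against the 4 controls and -0.02 against control2. SAM1 and SAM2, which make S-adenosylmethionine, differed by 0.09 ± 0.10 and -0.33 ± 0.11 (adjusted p = 0.69 and 0.194). The recycling kinase MTK1 differed by -0.10 ± 0.18 and the dioxygenase ARD4 by 0.12 ± 0.25. Differences for the nicotianamine synthases NAS1, NAS2 and NAS3, which draw on S-adenosylmethionine to make a metal chelator, were -0.07, -0.22 and 0.56. IDI2, a gene of methionine salvage, had probe sets that disagreed in size: -0.12 ± 0.15 on one and -1.34 ± 0.54 (adjusted p = 0.284) on the other, where it read 4.88 and 4.56 in ACC, against 5.04 and 5.23 in control2 and 6.89 and 7.07 in control1.

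Among the other named genes, LPR1 and HIRL2 had the largest rises. LPR1 belongs to the multicopper oxidases known from Arabidopsis for root growth under low phosphate. It read 10.02 and 9.46 in ACC, against 7.81 and 7.40 in control2 and 7.54 and 7.80 in control1, with a wide gap between ACC and all controls. It rose by 2.11 ± 0.32 (4.30-fold, adjusted p = 0.0157) against the 4 controls and by 2.14 ± 0.38 (adjusted p = 0.038) against control2. HIRL2 read 10.28 and 9.85 in ACC, against 8.30 and 7.74 in control2 and 7.78 and 7.77 in control1. Here too no control array came near the ACC arrays, although the first control2 array stood above the other controls. The rise was 2.16 ± 0.32 (4.48-fold, adjusted p = 0.0144) against the 4 controls and 2.04 ± 0.36 (adjusted p = 0.0407) against control2. Both calls against the 4 controls ended when either ACC array was left out, with adjusted p-values of 0.143 and 0.0687 for LPR1 and 0.123 and 0.0687 for HIRL2 without ACC replicate 1 and 2, and that of LPR1 also ended without control1 replicate 1 (0.0503). Their calls against control2 ended without any 1 of the 6 ACC and control arrays, at adjusted p-values of 0.0642 to 0.31 for LPR1 and 0.057 to 0.333 for HIRL2.

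EXP6 and EXP1, both expansins, wall proteins that loosen the links between cellulose fibres, moved in opposite directions. EXP6 read 10.10 and 9.82 in ACC, against 8.99 and 9.31 in control2 and 9.09 and 9.24 in control1, and rose by 0.80 ± 0.12 (1.74-fold, adjusted p = 0.014), or 0.81 ± 0.14 (adjusted p = 0.0347) against control2. EXP1 read 8.21 and 7.47 in ACC, against 9.34 and 8.99 in control2 and 9.16 and 9.61 in control1. It fell by 1.44 ± 0.24 in the comparison with the 4 controls (adjusted p = 0.0233), and against control2 the change was -1.33 ± 0.27 (adjusted p = 0.063). In neither gene did ACC and control arrays overlap. Leaving out ACC replicate 1 ended the call of EXP6 against the 4 controls (adjusted p = 0.123), and its call against control2 ended without ACC replicate 1 or any 1 of the 4 control arrays (0.0598 to 0.146). For EXP1, leaving out ACC replicate 2 or control1 replicate 1 ended the call (adjusted p = 0.2 and 0.0531). Of 24 tested expansin and xyloglucan endotransglucosylase genes these were the only calls against the 4 controls, with a list median of -0.27 against the 4 controls and 0.04 against control2.

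OsPMEI8 and CESA1 were called against the 4 controls and not against control2. OsPMEI8, a pectin methylesterase inhibitor, read 5.87 and 6.56 in ACC, against 7.74 and 8.90 in control2 and 9.44 and 10.00 in control1. ACC was below every control array, and the control sets themselves were apart. It fell by 2.80 ± 0.51 against the 4 controls (6.98-fold lower, adjusted p = 0.0368), and the change against control2 was -2.10 ± 0.44 (adjusted p = 0.0664). CESA1, a catalytic subunit of the cellulose synthase of primary walls, read 12.72 and 12.82 in ACC, against 13.15 and 13.14 in control2 and 13.26 and 13.17 in control1. Both ACC arrays were below all controls, and it fell by 0.41 ± 0.08 (adjusted p = 0.0473), with a change of -0.37 ± 0.09 against control2 (adjusted p = 0.11). Another CESA1 probe set gave -0.56 (adjusted p = 0.342) against the 4 controls and -0.13 (adjusted p = 0.867) against control2.

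Among hormone genes outside the ethylene pathway, LOGL3 and IAA10 were lower. LOGL3, an enzyme of the LONELY GUY family that releases active cytokinin, read 7.99 and 8.46 in ACC, against 9.43 and 9.16 in control2 and 9.60 and 10.09 in control1. The groups did not overlap, and the change was -1.35 ± 0.22 (adjusted p = 0.0241) against the 4 controls and -1.07 ± 0.21 (adjusted p = 0.0535) against control2. It was the 1 call among 18 tested genes of cytokinin metabolism and response, a list with a median of -0.14 against the 4 controls. IAA10, an Aux/IAA repressor of auxin signalling, read 9.48 and 9.47 in ACC, against 10.27 and 10.27 in control2 and 9.88 and 10.00 in control1. ACC lay below both control sets, farther below control2, and the change was -0.80 ± 0.12 (adjusted p = 0.0182) against control2 and -0.63 ± 0.13 (adjusted p = 0.058) against the 4 controls. It was the 1 call against control2 among 37 tested auxin genes, of which limma called 0 against the 4 controls. Of the 37, 11 had an unadjusted p under 0.05 against the 4 controls, beside 3537 of all 24100 probe sets. The call of IAA10 ended without either ACC array (adjusted p = 0.0844 and 0.0651 without replicate 1 and 2) or either control2 array (0.0537 and 0.152).

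OsPIP2;2 was called against the 4 controls only, and MHX1 against control2 only. OsPIP2;2, an aquaporin of the plasma membrane, read 12.62 and 13.07 in ACC, against 13.48 and 13.95 in control2 and 14.00 and 14.26 in control1. The change was -1.07 ± 0.20 (adjusted p = 0.0414) against the 4 controls and -0.87 ± 0.21 (adjusted p = 0.11) against control2. MHX1, whose Arabidopsis relative exchanges magnesium and zinc for protons at the vacuole, read 8.89 and 8.89 in ACC, against 10.11 and 9.82 in control2 and 11.42 and 11.35 in control1. ACC was lowest in both genes, and in MHX1 the gap between the control sets was wider than that between ACC and control2. MHX1 fell by 1.08 ± 0.13 against control2 (adjusted p = 0.0056), while the change of -1.79 ± 0.37 against the 4 controls had an adjusted p of 0.0596. Its other probe set gave -1.04 (adjusted p = 0.0571) against control2 and -1.73 (adjusted p = 0.0767) against the 4 controls.

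A heat stress transcription factor, HSFA2B, read 5.14 and 5.44 in ACC, against 6.20 and 6.29 in control2 and 6.59 and 6.55 in control1, and fell by 1.12 ± 0.18 (adjusted p = 0.0179; against control2 -0.96 ± 0.18, adjusted p = 0.0535). The cyclin gene CYCP2-1 read 7.52 and 6.86 in ACC, against 8.42 and 8.08 in control2 and 8.38 and 8.74 in control1, and fell by 1.22 ± 0.20 (adjusted p = 0.0233; against control2 -1.06 ± 0.22, adjusted p = 0.0639). The kinesin gene KIN14B fell by 0.88 ± 0.17 (adjusted p = 0.0448; against control2 -0.92 ± 0.20, adjusted p = 0.0809), with 5.59 and 6.06 in ACC, against 6.75 and 6.74 in control2 and 6.57 and 6.75 in control1. In each of these 3 genes both ACC arrays were below all 4 controls.

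PDC2, a pyruvate decarboxylase, which carries out the first step of ethanol fermentation, rose. It read 14.02 and 14.14 in ACC, against 13.38 and 13.49 in control2 and 13.45 and 13.39 in control1, with no overlap and a rise of 0.65 ± 0.10 (1.57-fold, adjusted p = 0.0198). The same size against control2, 0.65 ± 0.12, had an adjusted p of 0.0508, and another PDC2 probe set gave 0.67 (adjusted p = 0.247) against the 4 controls and 0.98 (adjusted p = 0.102) against control2. ART1, a zinc finger transcription factor of aluminium tolerance in rice, read 8.66 and 8.99 in ACC, against 8.24 and 8.11 in control2 and 7.96 and 8.05 in control1, and rose by 0.74 ± 0.14 (adjusted p = 0.0475; against control2 0.65 ± 0.16, adjusted p = 0.13). OsC3H37, a CCCH zinc finger protein, rose against control2 by 1.14 ± 0.16 (adjusted p = 0.014; against the 4 controls 0.81 ± 0.21, adjusted p = 0.115), with 11.11 and 11.02 in ACC, against 9.86 and 9.98 in control2 and 10.72 and 10.43 in control1. ACC exceeded all controls in these 3 genes, and for OsC3H37 control1 stood closer to ACC than to control2. BGLU5, a beta-glucosidase, differed from the rest: 10.21 and 10.25 in ACC lay between 10.88 and 10.98 in control2 and 9.98 and 9.79 in control1. Its change was -0.70 ± 0.12 against control2 (adjusted p = 0.0356) and -0.18 ± 0.28 against the 4 controls (adjusted p = 0.803), and its other probe set was not called in either comparison. The call of BGLU5 ended without any 1 of the 6 ACC and control arrays (adjusted p = 0.0598 to 0.297).

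**Figure D3:**
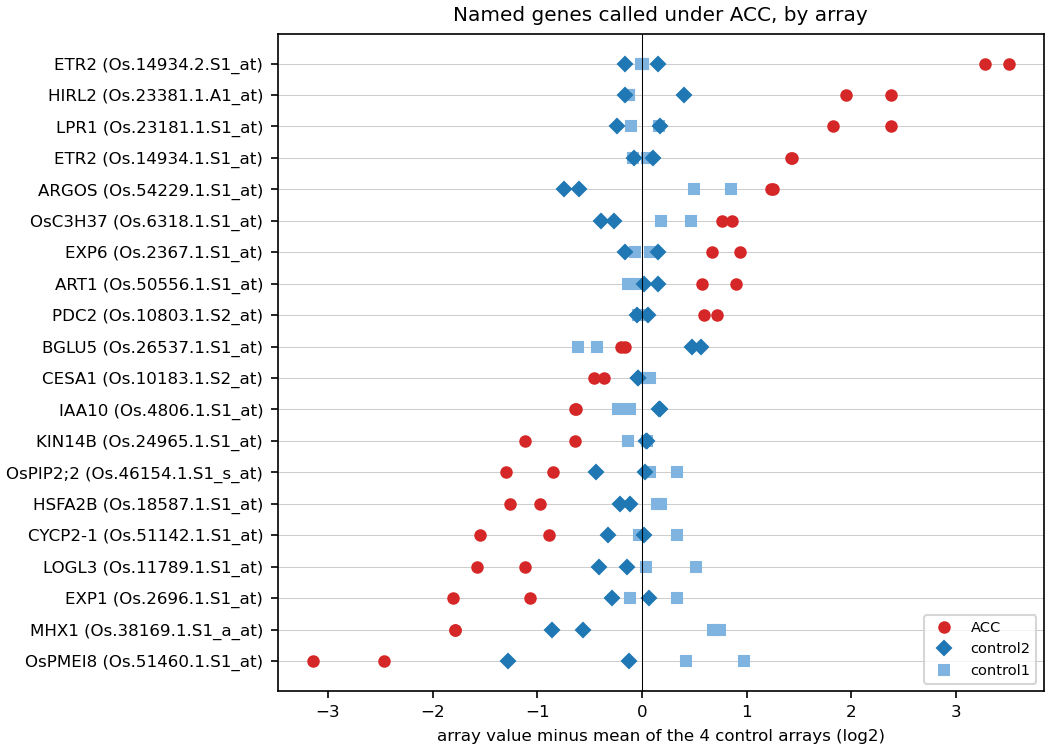
Values of the 20 called probe sets of named genes in each array, as differences from the mean of the 4 control arrays (horizontal axis, log2): ACC (red circles), control2 (dark blue diamonds) and control1 (light blue squares). Both ACC arrays lie outside the range of the 4 controls in all but BGLU5, and the control sets are farthest apart in MHX1, ARGOS, OsPMEI8 and BGLU5.

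Calls among genes known by a locus identifier alone reached similar sizes. The plot by array shows 20 probe sets, 12 higher and 8 lower, called against the 4 controls and against control2 and chosen after their values were seen. LOC4327537 read 7.04 and 6.76 in ACC, against 4.48 and 3.37 in control2 and 3.02 and 3.09 in control1, and rose by 3.41 ± 0.44 (adjusted p = 0.00811; against control2 by 2.97 ± 0.45, adjusted p = 0.0201). Its controls were below 5, as for the second ETR2 probe set. LOC4324822 read 12.43 and 12.27 in ACC, against 9.71 and 9.61 in control2 and 10.62 and 10.60 in control1. It rose by 2.22 ± 0.27 against the 4 controls (adjusted p = 0.00512) and by 2.69 ± 0.14 against control2 (adjusted p = 6.85e-06), the smallest adjusted p of the 20 in that comparison. LOC4346594 fell by 2.97 ± 0.25 (adjusted p = 0.000375; against control2 -2.80 ± 0.27, adjusted p = 0.00127), with 4.66 and 4.66 in ACC, against 7.19 and 7.73 in control2 and 8.19 and 7.42 in control1. LOC4340945 fell by 1.82 ± 0.20 (adjusted p = 0.00305; against control2 -1.66 ± 0.21, adjusted p = 0.0098), with 7.44 and 7.75 in ACC, against 9.15 and 9.36 in control2 and 9.57 and 9.58 in control1. ACC and control arrays did not overlap in any of these 4, which was a condition of the choice. LOC4336684 was called through both of its probe sets, with rises of 1.57 ± 0.15 and 1.78 ± 0.26 against the 4 controls (adjusted p = 0.00164 and 0.0147).

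**Figure D4:**
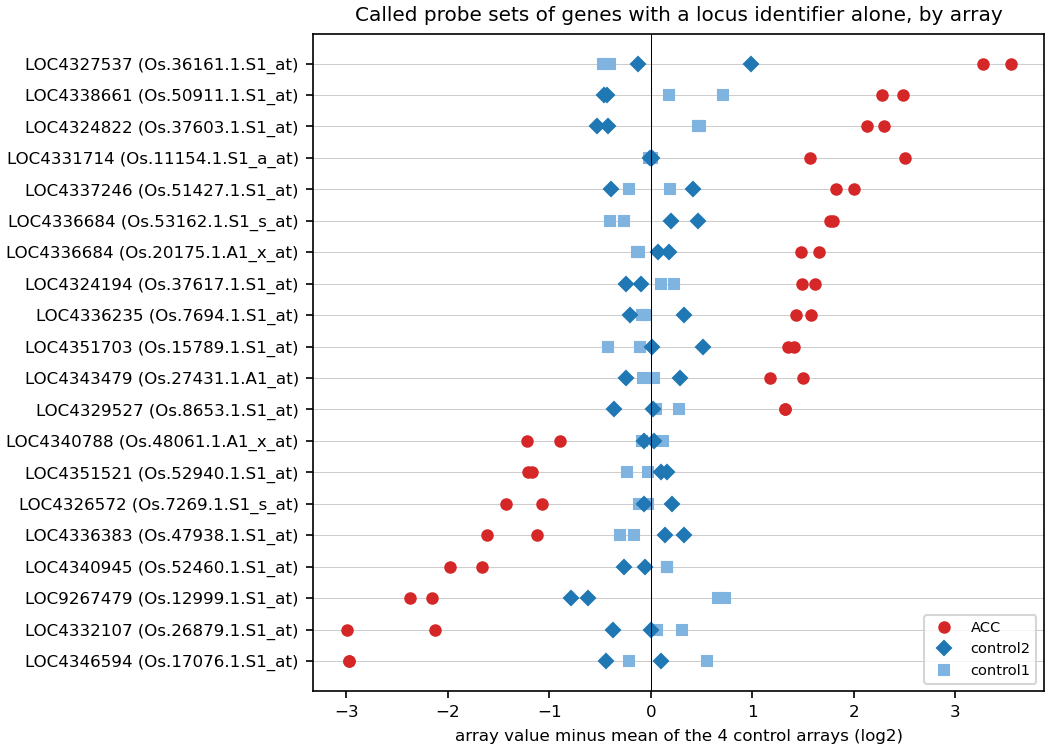
The 12 largest rises and 8 falls of at least 2-fold among probe sets called against the 4 controls and against control2 whose gene has a locus identifier alone, by array, as differences from the mean of the 4 control arrays (horizontal axis, log2). The ACC arrays (red circles) lie outside the control2 and control1 arrays in every row, which was a condition of the choice.

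The pathway lists held few calls. Each list holds only genes matched by name, so family members known by a locus identifier alone are outside it. Over 15 lists with 195 tested genes of 221, 3 genes rose and 2 fell against the 4 controls, 2.56% beside 0.614% of all probe sets, and 3 rose and 1 fell against control2, 2.05% beside 0.34%. The lists hold the ethylene genes on purpose, and their members were chosen with earlier results of these data known, so nothing is read from these shares. In 11 of the 15 lists there was no call against the 4 controls. Those were ethylene biosynthesis, signalling downstream of the receptors, the methionine cycle, AP2/ERF factors (8 tested), abscisic acid metabolism (4), gibberellin (9), auxin (37), jasmonate synthesis and JAZ (23), pathogenesis-related proteins and chitinases (19), reactive oxygen (21) and the circadian clock (6). Of the 139 tested genes of these lists, 29 had an unadjusted p under 0.05 against the 4 controls, beside 3537 of all 24100 probe sets. Medians of the lists with 18 or more tested genes lay between -0.27 and -0.02 against the 4 controls and between -0.15 and 0.04 against control2.

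Several list members differed far more from control1 than from control2, and none of the 4 named here passed the test against the 4 controls. The low-oxygen genes PDC1 and NSHB1, the second a non-symbiotic haemoglobin, are examples. PDC1 read 5.62 and 4.76 in ACC, against 4.76 and 2.80 in control2 and 11.03 and 10.06 in control1, which gave -1.97 ± 1.86 against the 4 controls and 1.41 ± 0.90 against control2 (adjusted p = 0.646 and 0.662). NSHB1 read 7.34 and 6.96 in ACC, against 6.88 and 6.52 in control2 and 11.16 and 11.43 in control1. In both genes the sign of the change turned with the control set. The low-oxygen list had a median of -0.02 against the 4 controls and 0.55 against control2, with 1 rise (PDC2) against the 4 controls and 0 calls against control2 (3 with an unadjusted p under 0.05). The clock gene LHY/CCA1 gave -1.48 ± 0.63 and -0.24 ± 0.16 (adjusted p = 0.313 and 0.688), with 9.71 and 9.95 in ACC, against 10.12 and 10.02 in control2 and 12.55 and 12.54 in control1. The glucanase GLU15 read 2.53 and 2.55 in ACC, against 2.55 and 2.56 in control2 and 9.10 and 10.59 in control1.

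**Figure D5:**
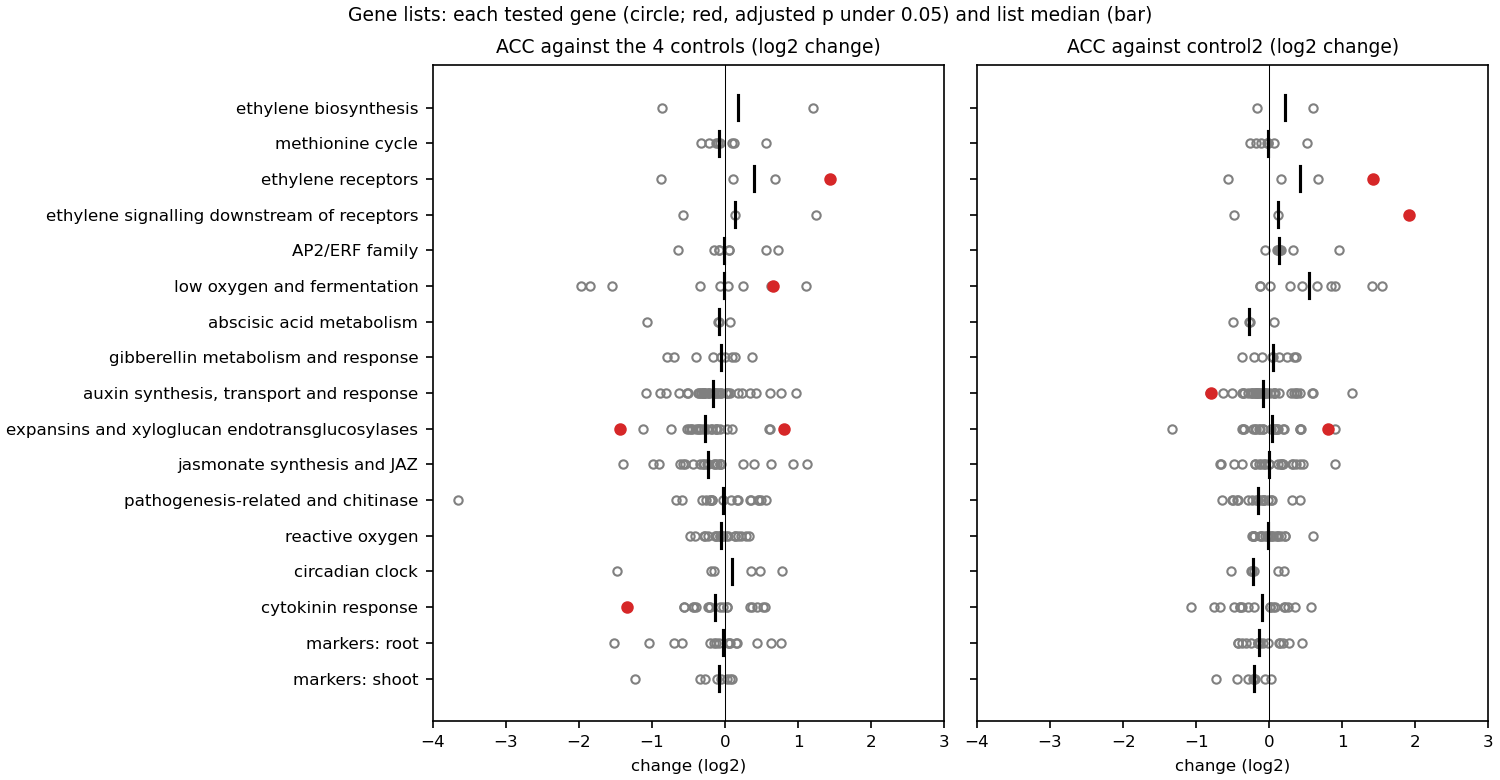
Change under ACC of each tested gene (circles) in the gene lists, against the 4 controls (left) and against control2 (right), log2 on the horizontal axes, with list medians as bars; red circles have an adjusted p under 0.05. The 5 red genes on the left are ETR2, PDC2, EXP6, EXP1 and LOGL3, and the 4 on the right are ETR2, ARGOS, EXP6 and IAA10.

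ACC was also set against the mean of the other 5 hormones, a comparison that mixes both spike-in groups. It gave 5418 calls, 22.5%, with 2511 higher (10.4%) and 2907 lower (12.1%). Against ABA, SA and JA alone 6037 were called, 25%. Among named genes, those higher under ACC than in the mean of the other hormones included the silicon efflux transporter Lsi2 (2.88 ± 0.45 units). Others were the glutaredoxin GRXC10, the seed protein EM and the lipoxygenase LOX3. ETR2 was higher by 1.48 and 3.16 on its 2 probe sets. The second read below 5 in all arrays of the other hormones. These are differences from other hormones and not changes from water. LOX3 differed by 1.11 ± 0.44 (adjusted p = 0.277) against the 4 controls and by 0.47 ± 0.36 (adjusted p = 0.726) against control2. Lsi2 read 12.76 and 12.45 in ACC and from 4.22 to 12.49 in the arrays of the other hormones. In the controls it read 12.61 and 12.34 in control2 and 11.71 and 11.27 in control1. Its difference under ACC was 0.63 ± 0.56 (adjusted p = 0.628) against the 4 controls and 0.13 ± 0.59 (adjusted p = 0.981) against control2.

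Genes lower under ACC than in the mean of the other hormones included the homeobox gene HOX24, at -4.35 ± 0.45. The protein phosphatases PP2C68, OsPP2C30 and OsPP2C09 differed from that mean by -3.98, -3.64 and -3.07. These too are not changes from water. The ACC arrays were below 5 in HOX24 and PP2C68, so the sizes of these 2 differences depend on the lowest part of the scale. Phosphatases of this clade restrain ABA signalling. HOX24 read 2.43 and 2.87 in ACC, against 2.49 to 13.23 in the arrays of the other hormones, 2.86 and 2.68 in control2 and 7.96 and 9.19 in control1. PP2C68 read 3.88 and 4.97 in ACC, against 5.14 to 12.54 in the other hormones, 6.08 and 4.90 in control2 and 7.60 and 8.53 in control1. Neither passed against the 4 controls (adjusted p = 0.387 and 0.192) or control2 (0.982 and 0.458). OsPMEI8 and HIRL2 were the named genes, besides ETR2, among the 10 largest differences in a direction here that were also called against the 4 controls.

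The counts rest on few arrays. In a fit of the 6 ACC and control arrays alone, limma called 1 probe set against the 4 controls and 13 against control2. The 1 was the second of ETR2 (adjusted p = 0.00799), which had passed the filter through the ACC arrays alone. The first ETR2 probe set and ARGOS were among the calls against control2 (adjusted p = 0.0424 for each). With 1 array left out, the count against the 4 controls was 15 without ACC replicate 1, 33 without ACC replicate 2, 47 and 70 without control1 replicate 1 and 2, and 455 and 292 without control2 replicate 1 and 2. The count against control2 was 26 without ACC replicate 1, 44 without control1 replicate 1 and likewise replicate 2, and 9 without control2 replicate 2. Of the 15 called probe sets of named genes against the 4 controls, 11 lost the call without ACC replicate 1, 12 without ACC replicate 2 and 11 without control1 replicate 1. Of the 10 against control2, 6 lost the call without ACC replicate 1, 4 without ACC replicate 2, 6 without either control2 array and 4 without either control1 array. Both ETR2 probe sets kept the call with any 1 of these arrays left out, as ARGOS did against control2. In the fit of the 6 ACC and control arrays, the first ETR2 probe set lost its call against the 4 controls (adjusted p = 0.0964). Every other call of a named gene against the 4 controls, PDC2 among them, ended when 1 or the other ACC array was left out.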

How the data were processed

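RNA of whole seedlings, extracted with TRI reagent and labelled as biotinylated cRNA per the labels' protocols, was hybridized to the Affymetrix rice array. The deposited values are log2 values, 1 for each probe set on each array, that the authors computed with GCRMA (background correction, normalization between arrays and summary of probes) as the submitters' processing notes say. Its version is not given in the sources used here, and the base of the logarithm was taken as 2 from the range of the values. Background correction shapes values near the bottom of the scale. AFFX (123) and RPTR (64) probe sets were left out of the tests.

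Of 57194 rice probe sets, 22436 had 1 gene in the platform annotation, 95 several and 34663 none. All 17905 genes were found in the RefSeq table (assembly ASM3414082v1), and 2423 had a name there other than a locus identifier. Coordinates were left out because the array was not designed on this assembly.

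limma 3.58.1 in R 4.3.3 (lmFit, eBayes with an intensity trend) was fitted over all 16 arrays, with 7 groups (4 controls together, 9 residual degrees of freedom) for the comparison with the 4 controls and with 8 groups (8 residual degrees of freedom) for those with control2, control1 and the other hormones. Tests were two-sided with Benjamini-Hochberg adjustment over 24100 probe sets. The number of arrays limits the precision, and with the 4 controls as 1 group the difference between the control sets enters the error. The labels call replicates biological. On simulated data with 200 changed probe sets (100 of size 1 and 100 of size 2, log2), the fit recovered 77 and 98 against the 4 controls with 10 false calls, and 63 and 97 against control2 with 4 false calls. The difference between the real control sets was not simulated.

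Named genes are the 15 largest changes in a direction among called named genes with at least a 2-fold change against the 4 controls (10 probe sets met this) or against control2 (7), all measured genes of ethylene biosynthesis, receptors, signalling and the methionine cycle, up to 6 genes of each other list, and the 10 largest differences in a direction from the other hormones. Remaining called named genes, and those with a locus identifier, were named after their values were seen. Choices by change against the controls, and of locus identifiers, required both ACC arrays to lie outside the range of the 4 controls. Lists use 1 probe set per gene (highest mean). Members, lists and alternatives were chosen with earlier results of these data known. Alternatives were no filter, a floor of 7, quantile normalization, median centring, variance priors, array weights, a 2-fold minimum, the spike-in group or replicate number as a block, other control sets, and leaving out arrays. The setting in which ACC arrays had to lie outside the range of the 4 controls was added after the data were seen.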

Additional observations from a re-analysis of the deposited data

Results flagged for a closer look

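The 130 probe sets chosen for description include 20 of genes with a locus identifier alone. For 4 of the 130, 1 of the 4 control arrays stood far from the other 3 by Dixon's ratio, which flags about 1 in 20 groups by chance. HIRL2 was 8.30 in the first control2 array, with the next control array at 7.78. JAZ11, a JAZ repressor of jasmonate signalling, was 10.33 in the second control2 array, with the next at 11.53. KIN14B was 6.57 in the first control1 array, with the next at 6.74. RAmy3D, an alpha-amylase gene, was 4.50 in the second control2 array, with the next at 6.02. HIRL2 and KIN14B were called against the 4 controls with these arrays included.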

How the results depend on the processing

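Against the 4 controls, the 148 calls became 3628 with array weights, 1 in a fit of the ACC and control arrays only, 93 with a 2-fold minimum, 5767 against control1 alone, 82 against control2 alone (the spike-in group as a block is the same test and gave the same 82) and 1854 against the mean of both control sets as separate groups. Leaving out 1 array gave 15 to 455. Against control2, the 82 calls became 38 with array weights and 13 with the ACC and control arrays only, and leaving out 1 array gave 9 to 104. Leaving out 1 ACC array gave 2817 to 3340 calls against the other 5 hormones (5418 with both) and 3648 to 4149 against ABA, SA and JA (6037 with both). A group left with 1 array was assumed to vary like the others. No filter, a floor of 7, normalization and the variance prior kept the counts within 1.5 times (103 to 160 against the 4 controls, 65 to 112 against control2). None of the 65 called single results reversed its sign under the settings run for it. Control1 was not among the settings for calls against control2, and 8 of those 82 calls had the opposite direction against control1. The uncalled changes of PDC1 and NSHB1 were of opposite sign against the 4 controls and control2, and BGLU5, called lower against control2, was 0.34 above control1. The causes were not tested.

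With the replicate number as a block, 119 probe sets were called against the 4 controls and 120 against control2. Same-numbered arrays deviated together in ACC and control2 (r = 0.357) and not in ACC and control1 (0.021), and the labels do not say that numbers pair the arrays.

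The 65 called single results were each run under up to 19 settings, which gave 1106 pairs of a result and a setting. The call was kept in 841 pairs and lost in 265, and 7 of the 65 results kept it in all settings. ETR2 kept it in 18 of 19 (first probe set) and 18 of 18 settings against the 4 controls and in 15 of 15 and 14 of 14 against control2, as did ARGOS in 15 of 15. Calls against the 4 controls were kept in 14 of 19 settings for CYCP2-1 and in 13 of 19 for PDC2, LOGL3 and HSFA2B. They were kept in 11 of 19 for OsPMEI8, 10 of 19 for OsPIP2;2 and ART1, 8 of 19 for CESA1 and 8 of 18 for KIN14B. Neither depth nor counting error applies to these values, and 2 arrays a group limit all tests.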
